A study of Homo sapiens with 6 samples.

Results

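In the pleural mesothelioma (PM) cell line H2452, transcripts were counted for 9 enzymes that bring carbon into the tricarboxylic acid (TCA) cycle, take it out again, or pass nitrogen between glutamate, alanine and aspartate. They are *PCK2*, *PC*, *ME1*, *ME2*, *GOT1*, *GOT2*, *GLUD1*, *GPT2* and *NAT8L*. The members were chosen by gene name, with earlier results of these data known. Each name matched 1 of the 58735 genes in the count table. All 9 passed the expression filter and were among the 14179 genes tested. The series holds 3 sgCtrl libraries (genotype WT, a scrambled guide RNA) and 3 sg*NF2*-1 libraries (genotype *NF2*-KO, a guide RNA against the tumor suppressor *NF2*), all from cells in RPMI-1640 medium with serum and with no treatment named. Per the study's methods, both groups carried a lentiviral Cas9, guide and mCherry vector and were sorted by flow cytometry for mCherry, so each group was a sorted population and only 1 *NF2* guide was sequenced. The study's methods call its replicates biological in general terms, but the labels do not say whether these libraries came from separate cultures, and the p-values measure the spread between these libraries.

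The cycle loses intermediates when its carbon is used to build other molecules, and reactions that refill it are called anaplerotic. Pyruvate carboxylase makes oxaloacetate from pyruvate, and glutamate carbon enters as 2-oxoglutarate through glutamate dehydrogenase or the aminotransferases. Phosphoenolpyruvate carboxykinase and the malic enzymes run the other way, taking 4-carbon acids out to phosphoenolpyruvate or pyruvate. Aspartate, which the GOT aminotransferases make from oxaloacetate, supplies atoms of the pyrimidine ring.

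The total counts ranged from 14782423 to 17416463 per library. *NF2* had 1162, 1197 and 1025 counts in sgCtrl and 692, 802 and 590 in sg*NF2*-1, so its transcript was reduced and not absent (log2 fold change -0.69, standard error 0.10). Of 10 mesothelial and epithelial markers, 9 were tested, and their summed level per library was 3480 to 3925 CPM (the count scaled to library size) in sgCtrl and 3372 to 4132 CPM in sg*NF2*-1. *KRT5* had at most 3 counts in any library. Within that list 3 genes rose and 3 fell, beside 17.7% and 16.6% of all tested genes. *KRT7*, *MSLN* and *KRT18* rose (log2 fold changes 1.20, 0.66 and 0.28). *WT1*, *PDPN* and *KRT19* fell (-1.04, -1.28 and -0.94). Among 7 leukocyte and endothelial markers, *PTPRC* had no count in any library. Their summed level was 142.1 to 154.4 CPM in sgCtrl, against 67.2 to 73.0 CPM in sg*NF2*-1, mostly *CD14*. Of the 3 tested genes 2 fell, beside 16.6% of all tested genes. These were *CD14* and *PECAM1* (log2 fold changes -1.06 and -2.28). What part these shifts have in the results for the enzymes was not tested.

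Of the 9 enzymes, 6 rose in sg*NF2*-1, 2 fell and 1 did not pass the test (adjusted p under 0.05, edgeR's quasi-likelihood test with Benjamini-Hochberg adjustment over all tested genes). For comparison, 17.7% of all tested genes were called higher and 16.6% lower, 34.3% in all. *NAT8L* and *PCK2* rose most, 5.56-fold and 4.65-fold by mean CPM, followed by *GPT2* at 2.01-fold. *GOT1*, *GOT2* and *ME2* rose by smaller steps, *PC* and *ME1* fell, and *GLUD1* was the member that did not pass. Beyond a log2 fold change of 0.5, the study's fold limit, 5 members were higher and 1 was lower, against 8.42% and 9.32% of all tested genes. With an unadjusted p under 0.05 in place of the adjusted p, the counts were also 5 and 1, against 9.22% and 10.8%. *GOT1* (0.520) and *GOT2* (0.504) lay close to the fold limit. Each fell under it in some of the alternative fits, with ranges of 0.45 to 0.61 for *GOT1* and 0.46 to 0.54 for *GOT2*. The median log2 fold change was 0.50 over the 9 members and -0.0025 over all tested genes. Because the members were chosen with earlier results known, these counts and medians describe them and are no test of the set. In bulk libraries such as these, a change in the share of cells with a transcript and a change in RNA per cell cannot be told apart. The groups did not overlap in CPM for 8 of the 9 members and for 45.3% of all tested genes. For each of those 8, the two-sided exact permutation test gave p = 0.10, the smallest that 3 libraries against 3 allow.

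**Figure D1:**
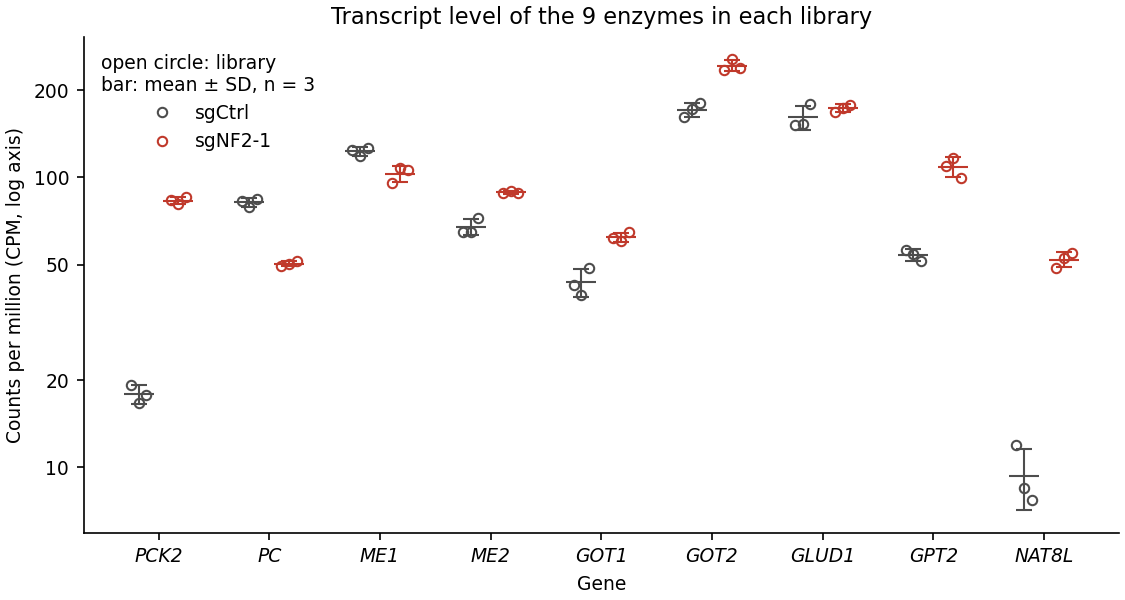
CPM of each enzyme (y axis, log scale) in every library (open circles), with the mean and SD of 3 libraries per group (bars), sgCtrl in grey and sg*NF2*-1 in red. The groups are apart for each gene except *GLUD1*, and the widest gaps are those of *PCK2* and *NAT8L*.

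*PCK2* (ENSG00000100889, chromosome 14 of GRCh38, 24094053 to 24110598, plus strand) encodes the mitochondrial phosphoenolpyruvate carboxykinase, which turns oxaloacetate into phosphoenolpyruvate. Its counts were 303, 273 and 270 in sgCtrl, and 1466, 1250 and 1215 in sg*NF2*-1. In CPM these are 19.2, 16.6 and 17.8 against 83.3, 81.0 and 85.3. The lowest sg*NF2*-1 library lay more than 4 times above the highest sgCtrl library, and the 3 libraries within each group lay close together. The log2 fold change was 2.22 (standard error 0.10, edgeR adjusted p = 1.5e-14), which ranked 36 among the 14179 tested genes. The gene *NRL* lies across *PCK2* on the other strand but shares no exon base with it, and it was at 0.769 CPM in sgCtrl, against 1.13 CPM in sg*NF2*-1. The cytosolic isoenzyme gene *PCK1* had no count in any library.

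The RefSeq sequences around the start sites (250 bases before to 50 after, GRCh38.p14) are shown for *PCK2* and *NAT8L*, the genes with the largest increases, and for *GOT1* and *ME1*, whose windows hold a match to a searched motif. The *GOT2* window also holds a match and is not shown. Windows were at hand for 8 of the 9 genes, all but *GPT2*, and 10 windows in all, since *PC* has 3. The search covered both strands for TGATGNAA (the core of the C/EBP-ATF response element), GGAATG (the core bound by TEAD factors), CACGTG (the E-box) and TGACNNNGC (the core of the antioxidant response element), none of whose matches in the windows overlapped another. Bases in capitals are these matches.
PCK2, chr14:24094061-24094360, plus strand: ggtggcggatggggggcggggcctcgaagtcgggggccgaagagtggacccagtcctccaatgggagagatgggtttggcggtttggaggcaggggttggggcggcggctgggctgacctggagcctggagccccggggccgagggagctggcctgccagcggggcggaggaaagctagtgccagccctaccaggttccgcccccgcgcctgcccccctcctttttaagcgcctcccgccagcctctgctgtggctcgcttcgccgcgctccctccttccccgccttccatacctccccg
NAT8L, chr4:2059077-2059376, plus strand: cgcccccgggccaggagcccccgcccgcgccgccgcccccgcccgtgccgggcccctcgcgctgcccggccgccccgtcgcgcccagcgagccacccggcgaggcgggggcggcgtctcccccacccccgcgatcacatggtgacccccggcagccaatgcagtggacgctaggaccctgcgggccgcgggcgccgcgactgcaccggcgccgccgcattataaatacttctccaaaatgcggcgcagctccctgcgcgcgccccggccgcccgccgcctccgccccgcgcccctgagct
GOT1, chr10:99430575-99430874, minus strand: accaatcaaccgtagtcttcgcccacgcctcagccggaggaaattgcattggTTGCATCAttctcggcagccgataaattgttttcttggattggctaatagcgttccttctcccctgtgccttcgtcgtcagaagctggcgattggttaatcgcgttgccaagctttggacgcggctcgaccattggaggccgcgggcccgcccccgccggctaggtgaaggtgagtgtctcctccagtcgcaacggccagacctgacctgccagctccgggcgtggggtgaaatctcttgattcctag
ME1, chr6:83431002-83431301, minus strand: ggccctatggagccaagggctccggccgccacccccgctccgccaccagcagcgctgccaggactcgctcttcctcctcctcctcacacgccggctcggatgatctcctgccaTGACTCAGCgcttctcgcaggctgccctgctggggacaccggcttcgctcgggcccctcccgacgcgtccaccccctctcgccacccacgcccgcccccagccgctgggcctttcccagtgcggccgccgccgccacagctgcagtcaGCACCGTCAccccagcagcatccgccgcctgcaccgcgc
The *PCK2* and *NAT8L* windows held none of the 4 motifs, and their G and C content was 71.7% and 80.3%, against a median of 58.7% over all windows. In *GOT1*, a C/EBP-ATF core began 198 bases before the start site, a motif found in 3.62% of all 35116 windows and in 1 of the 10 windows here. The antioxidant core was present in *ME1* at 2 places and in *GOT2* at 1, against 13.3% of all windows. No window of these genes held GGAATG, present in 14% of all windows, or CACGTG, present in 7.26%. A match is a description of letters, and its absence from such a short window says nothing about the factor.

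*NAT8L* (ENSG00000185818, chromosome 4, 2059512 to 2069089, plus strand) encodes aspartate N-acetyltransferase, which makes N-acetylaspartate, a metabolite best known from neurons. Its counts were 188, 139 and 117 in sgCtrl and 858, 815 and 780 in sg*NF2*-1. As CPM these were 11.9, 8.47 and 7.71 against 48.8, 52.8 and 54.8, so all sg*NF2*-1 libraries were far above the sgCtrl libraries, among which replicate 1 was the highest. The log2 fold change of 2.47 (standard error 0.13, edgeR adjusted p = 5.1e-13) ranked 17 among the tested genes and was the largest of the 9. *ASPA*, which encodes the enzyme that splits N-acetylaspartate, had no count in any library. The related genes *NAT8* and *NAT8B*, the latter annotated as a polymorphic pseudogene, had no count in any library either. Of 8 neuronal markers 3 were tested, and *SNAP25*, *STMN2* and *NEFL* had no count in any library. *SYT1*, a low transcript with 7 to 28 counts per library, rose (log2 fold change 1.13, standard error 0.41, edgeR adjusted p = 0.037). *MAP2* fell (-0.51, edgeR adjusted p = 0.0062). These were 1 higher and 1 lower of the 3, beside 17.7% and 16.6% of all tested genes. The summed level of the 8 markers was 19.4 to 27.0 CPM in sgCtrl, against 16.6 to 18.6 CPM in sg*NF2*-1, and *MAP2* made up most of it. Whether cells with neuronal transcripts have a part in the *NAT8L* difference was not tested.

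*GPT2* (ENSG00000166123, chromosome 16, 46884378 to 46931297, plus strand) encodes the mitochondrial alanine aminotransferase, which passes nitrogen from glutamate to pyruvate and leaves 2-oxoglutarate. Its level was 56.4, 54.5 and 51.5 CPM in sgCtrl, against 109.8, 116.9 and 99.8 CPM in sg*NF2*-1. The groups did not overlap, with replicate 3 the lowest of its group in both. The log2 fold change was 1.01 (standard error 0.09, edgeR adjusted p = 2.8e-09). The cytosolic form, *GPT*, had 12, 16 and 6 counts in sgCtrl and 3, 2 and 4 in sg*NF2*-1, too few to pass the filter, so no fold is given.

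The aspartate aminotransferases rose together and by about the same step. *GOT2* (ENSG00000125166, chromosome 16, 58707131 to 58734357, minus strand), the mitochondrial enzyme, which makes aspartate from oxaloacetate and glutamate, had 161.4, 172.5 and 180.3 CPM in sgCtrl, against 234.8, 255.5 and 238.8 CPM in sg*NF2*-1. *GOT1* (ENSG00000120053, chromosome 10, 99396870 to 99431569, minus strand), the cytosolic enzyme, had 42.5, 39.2 and 48.7 CPM in sgCtrl, against 61.7, 60.4 and 64.8 CPM in sg*NF2*-1. The groups were apart for both genes, and the gap was narrowest between sgCtrl replicate 3 and the sg*NF2*-1 libraries. Their log2 fold changes were 0.50 for *GOT2* (standard error 0.08, edgeR adjusted p = 2.4e-05) and 0.52 for *GOT1* (standard error 0.10, edgeR adjusted p = 0.00015). *GOT1* shares 651 of its 3369 exon bases with *AL391684.1*, a noncoding gene on the other strand, which fell from 2.60 to 1.25 CPM (log2 fold change -1.04, edgeR adjusted p = 0.013). The sources do not say whether the libraries mark strand, and the kit named in the study's methods is taken here as not doing so. In that case, reads from such shared stretches cannot be assigned to 1 of the genes. *AC092378.1*, which shares 162 exon bases with *GOT2*, had at most 2 counts in any library. *GOT1L1*, the related gene, had no count in any library.

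Pyruvate carboxylase moved the other way. *PC* (ENSG00000173599, chromosome 11, 66848233 to 66958376, minus strand), which encodes the mitochondrial enzyme that makes oxaloacetate from pyruvate, had 1311, 1297 and 1284 counts in sgCtrl and 872, 776 and 735 in sg*NF2*-1. The CPM values were 83.2, 79.0 and 84.6 in sgCtrl and 49.6, 50.3 and 51.6 in sg*NF2*-1, 61.4% of the sgCtrl mean. The libraries of each group lay within a narrow band, and the bands were far apart. The log2 fold change was -0.70 (standard error 0.09, edgeR adjusted p = 5.5e-07). *LRFN4*, on the other strand, shares 621 of the 5927 exon bases of *PC* and did not pass the test (log2 fold change 0.18, standard error 0.10, edgeR adjusted p = 0.20).

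Of the malic enzymes, which turn malate into pyruvate and yield NADPH or NADH, the cytosolic form fell and a mitochondrial form rose. *ME1* (ENSG00000065833, chromosome 6, 83210389 to 83431071, minus strand), the cytosolic NADP-dependent enzyme, had 124.3, 118.6 and 126.5 CPM in sgCtrl, against 95.7, 107.6 and 105.8 CPM in sg*NF2*-1. Its log2 fold change was -0.26 (standard error 0.08, edgeR adjusted p = 0.017), and the nearest libraries of the groups were 107.6 and 118.6 CPM. The call for *ME1* was lost without sgCtrl replicate 1 (edgeR adjusted p = 0.051) and without sg*NF2*-1 replicate 1 (edgeR adjusted p = 0.12). *ME2* (ENSG00000082212, chromosome 18, 50878734 to 50954257, plus strand), a mitochondrial NAD-dependent enzyme, had 64.9, 65.1 and 72.8 CPM in sgCtrl, against 88.1, 89.9 and 88.5 CPM in sg*NF2*-1. The 3 sg*NF2*-1 libraries were almost level and all above sgCtrl, with a log2 fold change of 0.40 (standard error 0.08, edgeR adjusted p = 0.00073). The other mitochondrial form, *ME3*, had 16.8 ± 1.34 CPM in sgCtrl, against 19.3 ± 1.88 CPM in sg*NF2*-1 (SD, n = 3 each), and its difference did not pass the test (log2 fold change 0.20, 95% interval -0.06 to 0.45).

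*GLUD1* (ENSG00000148672, chromosome 10, 87050486 to 87094866, minus strand) encodes glutamate dehydrogenase of the mitochondria, which turns glutamate into 2-oxoglutarate and ammonia. It had 151.2, 153.2 and 179.2 CPM in sgCtrl, against 167.9, 173.9 and 178.3 CPM in sg*NF2*-1. The groups overlapped, because sgCtrl replicate 3 was above every sg*NF2*-1 library. The log2 fold change was 0.10 with a 95% interval of -0.07 to 0.28 (edgeR adjusted p = 0.36), an interval that holds 0 and reaches further up than down. *GLUD1* has 5 named pseudogenes in the table, with 24 to 56 counts per library in sum, and the near-identical gene *GLUD2* had 7 to 15 counts per library. It shares 464 of its 3519 exon bases with *SHLD2*, whose log2 fold change was 0.03 (standard error 0.10).

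Among the partners of these enzymes, *GLUL*, the glutamine synthetase, which makes glutamine from glutamate and ammonia, rose, with a mean of 85.7 ± 0.439 CPM (SD, n = 3) for sgCtrl and 113.1 ± 5.58 CPM (SD, n = 3) for sg*NF2*-1. The difference in log2 was 0.40 (standard error 0.08, edgeR adjusted p = 0.00043), and the 3 libraries of sgCtrl were almost level.

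FPKM, which divides by gene length and library depth, sets the levels of the 9 transcripts side by side. In sgCtrl the order ran from *GLUD1* at 43.4 FPKM and *GOT2* at 43.1 through *ME1* at 34.6, *PC* at 13.2, *GOT1* at 12.2, *GPT2* at 8.07, *PCK2* at 4.05 and *ME2* at 3.94 to *NAT8L* at 1.51. The libraries of *GLUD1* and *GOT2*, of *PC* and *GOT1*, and of *PCK2* and *ME2* overlapped, so these neighbours were not separated by their spread. In sg*NF2*-1 the order was *GOT2* at 60.6 FPKM, *GLUD1* at 46.3, *ME1* at 28.7, *PCK2* at 18.7, *GOT1* at 17.4, *GPT2* at 16.1, *NAT8L* at 8.34, *PC* at 7.998 and *ME2* at 5.14. There the libraries of *GOT1* and *GPT2* overlapped, as did those of *NAT8L* and *PC*. *PCK2* thus moved from position 7 to 4 and *PC* from 4 to 8. The length used for *ME2*, 16243 bases over the exons of 19 transcripts, is far above those of the other 8 genes, which run from 3369 to 6354 bases, and a long length lowers an FPKM. On the log2(FPKM + 1) scale, which understates the change of low genes, limma called the same 6 genes higher and the same 2 lower, against 14.3% and 14.1% (28.4% in all) of its 13038 tested genes.

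**Figure D2:**
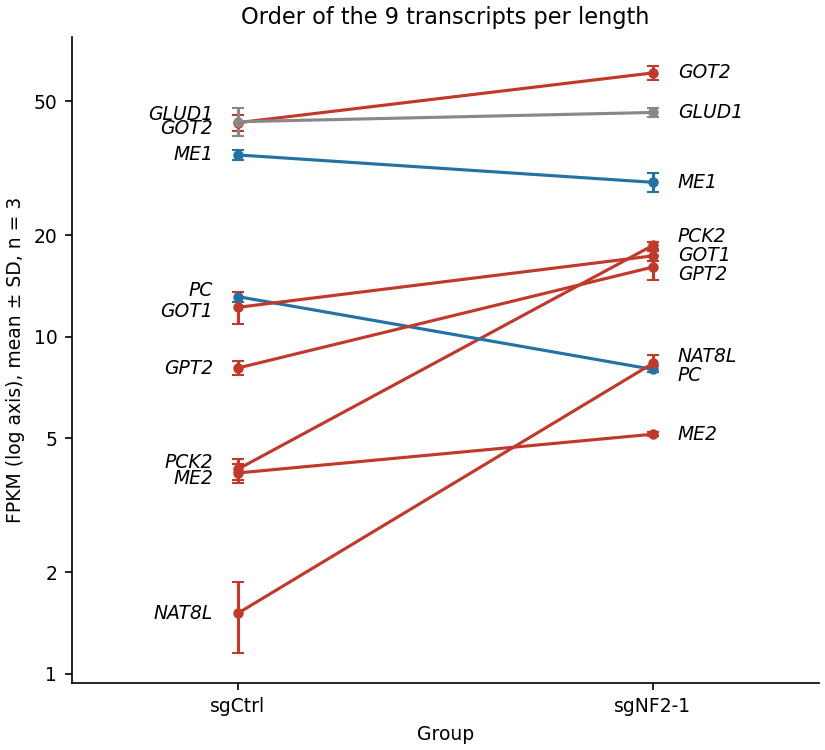
Mean FPKM (y axis, log scale) of the 9 transcripts in sgCtrl (left) and sg*NF2*-1 (right), with the SD of 3 libraries, joined by a line for each gene (red called higher, blue called lower, grey not passed). *PCK2* climbs from 4.05 to 18.7 FPKM and crosses *PC*, which descends from 13.2 to 7.998 FPKM.

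The FPKM ratio of a pair of enzymes within a library carries no depth and shows whether they changed unequally. The ratio of *PCK2* to *PC* was 0.327, 0.298 and 0.297 in the sgCtrl libraries and 2.38, 2.28 and 2.34 in the sg*NF2*-1 libraries, a 7.59-fold shift. *PCK2* was thus the lower transcript of the pair in every sgCtrl library and the higher in every sg*NF2*-1 library. In log2 the mean ratio moved by 2.92 (standard error 0.05). The ratio of *ME2* to *ME1* rose 1.57-fold, from a range of 0.108 to 0.119 to a range of 0.173 to 0.191. *GPT2* rose against *GOT2* by 1.42-fold. For these 3 ratios the groups did not overlap, with a two-sided exact permutation p of 0.10, the smallest possible, and 0.125 after adjustment over the 5 ratios tested. The ratio of *GOT2* to *GOT1* was 3.31 to 3.93 in sgCtrl and 3.30 to 3.79 in sg*NF2*-1. Its log2 difference of -0.02 (standard error 0.10, exact permutation p = 0.70) was smaller than the spread between replicates.

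**Figure D3:**
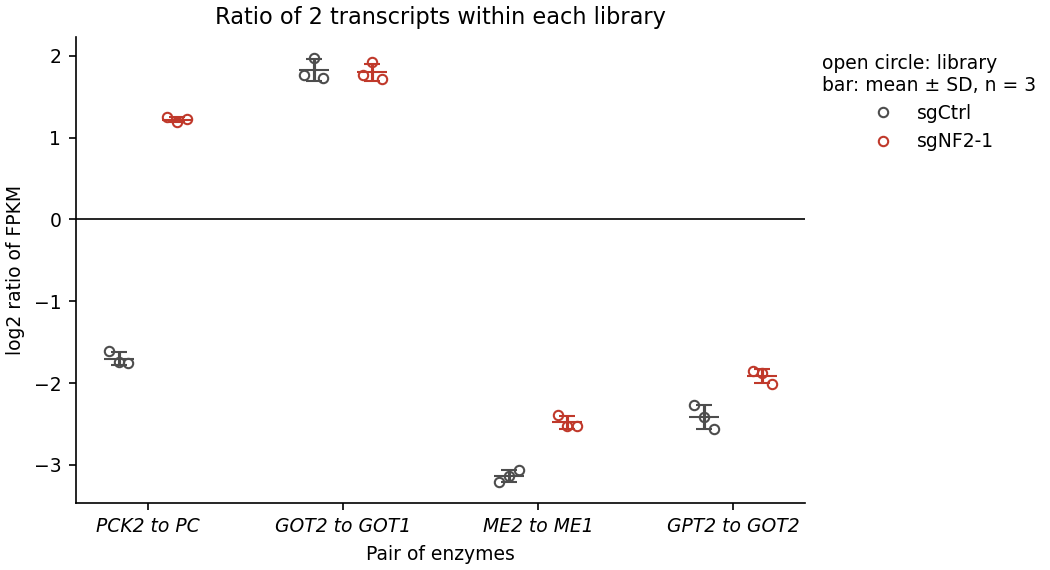
Log2 of the FPKM ratio of 2 enzymes (y axis) in each library (open circles), with mean and SD of 3 libraries (bars), sgCtrl in grey and sg*NF2*-1 in red. The *PCK2* to *PC* ratio passes from below 0 to above 0, while that of *GOT2* to *GOT1* stays near 1.8 in both groups.

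The other genes of these pathways were grouped into 5 lists of 77 genes in all, of which 61 were tested. In sum 10 of them rose and 9 fell, beside 17.7% and 16.6% of all tested genes, and 42 did not pass. Scaled by library totals only, 7 were higher and 10 lower. Without sgCtrl replicate 2 the number that rose was 6, and the number that fell was 5 without sg*NF2*-1 replicate 1 and 4 without sg*NF2*-1 replicate 2. Of the 19 calls, 10 were lost in at least 1 fit with a library left out. These were *SLC25A13* in all 6 such fits, *OGDH* in 5, *CS*, *PCCB* and *PDHX* in 4 each, *PKM* and *RIMKLB* in 3 each, *MDH1* without sgCtrl replicate 3 or sg*NF2*-1 replicate 2, *SLC25A1* without sgCtrl replicate 2 or sg*NF2*-1 replicate 3, and *IDH2* without sg*NF2*-1 replicate 1. The list medians lay between -0.22 and 0.26 in log2, and the highest value in the lists was 0.78, below those of *PCK2*, *NAT8L* and *GPT2*. Members and lists were chosen with earlier results known, so this contrast describes the choice and is no test.

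Around the pyruvate node 1 gene rose and 4 fell of 13 tested, beside 17.7% and 16.6% of all tested genes, with a median log2 fold change of -0.22. The number that fell was 2 without sg*NF2*-1 replicate 1 or replicate 2. *LDHA*, the lactate dehydrogenase subunit that favours lactate formation, fell from 2177 ± 201.4 to 1192 ± 42.4 CPM (SD, n = 3 each), with log2 fold change -0.87 (standard error 0.09, edgeR adjusted p = 4.1e-08). *MPC2*, a subunit of the mitochondrial pyruvate carrier, fell by 0.53 in log2 (standard error 0.11), *PKM*, the pyruvate kinase that consumes phosphoenolpyruvate, by 0.28 (standard error 0.09) and *PDHX*, a component of the pyruvate dehydrogenase complex, by 0.28 (standard error 0.10). *PDP1*, the phosphatase that activates pyruvate dehydrogenase, rose by 0.62 (standard error 0.09, edgeR adjusted p = 3.4e-06). Among other components of the pyruvate dehydrogenase complex, *PDHA1*, *PDHB* and *DLAT* had log2 fold changes of 0.02, -0.13 and -0.04 and did not pass.

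For the TCA cycle and the propionyl-CoA entry, 4 of 21 tested genes rose and 1 fell, with a median of 0.0018. The share that rose was near the 17.7% of all tested genes, and the share that fell was below their 16.6%. Scaled by library totals only, or without sgCtrl replicate 2 or sg*NF2*-1 replicate 2, 1 gene was called higher. The number was 2 without sgCtrl replicate 1 or sg*NF2*-1 replicate 3, and no gene was called lower without sg*NF2*-1 replicate 1. The 4 were *DLST* and *OGDH*, subunits of the 2-oxoglutarate dehydrogenase complex (0.42 and 0.22), *CS*, citrate synthase (0.23), and *PCCB*, a propionyl-CoA carboxylase subunit (0.23), with standard errors of about 0.08 each. *IDH2*, the mitochondrial NADP-dependent isocitrate dehydrogenase, fell from 15.9 ± 1.78 to 11.2 ± 1.82 CPM (log2 fold change -0.51, edgeR adjusted p = 0.0076). *SDHA* to *SDHD* and *FH*, the succinate dehydrogenase subunits and fumarase, did not pass the test.

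The malate-aspartate shuttle, which carries reducing equivalents into mitochondria with the help of the GOT enzymes, and the related carriers held few called genes. *SLC25A11*, the 2-oxoglutarate and malate carrier, rose (log2 fold change 0.40, standard error 0.09) and so did *SLC25A1*, the citrate carrier (0.24, standard error 0.09). *MDH1*, the cytosolic malate dehydrogenase, fell (-0.31, standard error 0.09), as did *SLC25A13*, an aspartate and glutamate carrier (-0.29, standard error 0.11, edgeR adjusted p = 0.044). These were 2 higher and 2 lower of 10 tested genes, shares near the 17.7% and 16.6% of all tested genes.

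Among the enzymes that use aspartate or glutamate, 2 of 13 tested genes rose and 1 fell, shares below the 17.7% and 16.6% of all tested genes. *CAD*, whose product joins aspartate to carbamoyl phosphate in pyrimidine synthesis, had a log2 fold change of 0.78, and *ASS1*, which joins aspartate to citrulline, rose from 154.5 ± 13.3 to 200.7 ± 21.2 CPM (0.38, standard error 0.09, edgeR adjusted p = 0.0018). *RIMKLB*, which encodes an enzyme that joins N-acetylaspartate and glutamate, fell by 0.35 in log2 (standard error 0.13, edgeR adjusted p = 0.041). *ASNS*, asparagine synthetase, was a low transcript here with 32 to 76 counts per library, and its log2 fold change of 0.48 (95% interval -0.03 to 1.00) did not pass.

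**Figure D4:**
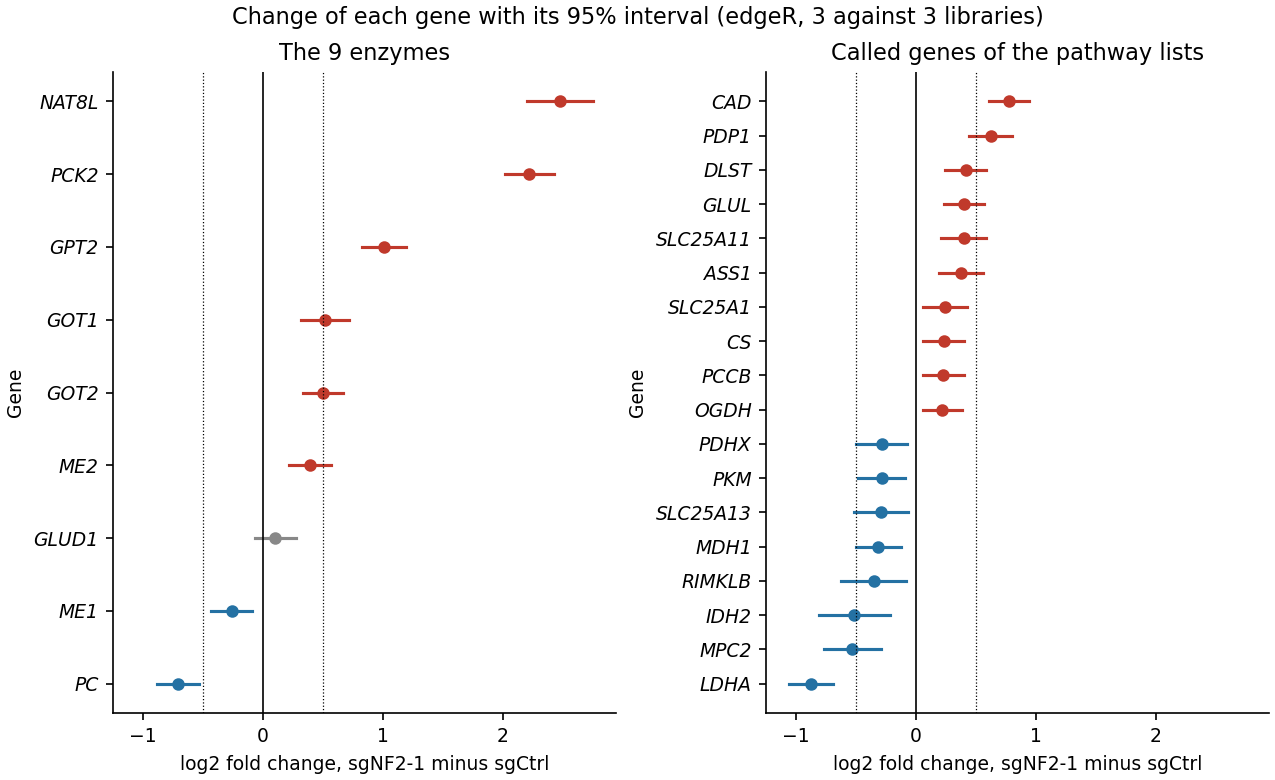
Log2 fold change of sg*NF2*-1 over sgCtrl (x axis) with its 95% interval for the 9 enzymes (left) and 18 called genes of the pathway lists (right), red called higher, blue called lower and grey not passed. Dotted lines mark the fold limit of 0.5 either way. *NAT8L* and *PCK2* lie beyond 2 on the left, and no point on the right reaches 1 in either direction.

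The genes whose profile over the 6 libraries was most like that of *PCK2* were found by the distance between mean-centred log2 CPM values, among 8970 genes with a mean of at least 10 CPM. The nearest were *ATF3*, *CHAC1*, *GDF15*, *KCNG1* and *BEGAIN*, at distances of 0.26 to 0.40 against a median of 2.67 over all genes searched. *GDF15*, a secreted stress cytokine, had 24.5 ± 2.35 CPM in sgCtrl, against 125.2 ± 10.6 CPM in sg*NF2*-1, and *ATF3*, a stress-induced transcription factor, had 10.9 ± 0.269 and 54.7 ± 3.95 CPM (SD, n = 3 each). *CHAC1*, a glutathione-degrading enzyme, had 14.8 ± 0.860 and 61.5 ± 3.56 CPM. *NAT8L* ranked 9 in this order and *GPT2* ranked 107. With 2 groups of 3 libraries, such a distance reflects mainly the size of the difference between the groups.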

How the data were processed

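The sources name HISAT2, StringTie 1.3.3b, featureCounts 1.5.0-p3 and hg38 in the submitters' processing notes. The authors deposited raw counts of reads per gene, not normalized, and FPKM values derived by them per gene length and library depth. The strand setting of the counting is not given in the sources used here. Groups and replicate numbers came from the sample titles. Genes were kept by filterByExpr of edgeR (minimum count 10 and total 15), libraries were scaled by TMM, and the quasi-likelihood test compared the groups (R 4.3.3, edgeR 4.0.16), with Benjamini-Hochberg adjustment over 14179 genes. Standard errors are the log2 fold change divided by the root of the F statistic. FPKM values were tested with limma 3.58.1 on log2(FPKM + 1) for genes with a mean of at least 0.5. The study used DESeq2, run here as an alternative (DESeq2 1.42.0). Other alternatives were the scaling, the filters, the replicate block, the call rule, the pseudocount and leaving out each library.

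The members and lists were chosen with earlier results of these data known. The text names all members, the genes that overlap them with a count in every library or share exon bases with them, *NF2*, other isoenzymes and partners, the called genes of the pathway lists (at most 4 a direction in each) and the 5 genes nearest to *PCK2*. *KRT7*, *MSLN*, *KRT18*, *WT1*, *PDPN*, *KRT19*, *CD14* and *PECAM1* were picked from the lists after their values were seen. The same holds for *SYT1*, *MAP2*, *PDHA1*, *PDHB*, *DLAT*, the *SDH* genes, *FH* and *ASNS*. 1 gene of the lists, counted in the totals, and 1 ratio with it are not reported here. The main edgeR fit, DESeq2 and the main limma fit were tested on simulated data before use, and the other alternatives were not.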

Additional observations from a re-analysis of the deposited data

How the results depend on the processing

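The 6 members called higher were 6 under DESeq2, each other scaling, each filter, the replicate block and each library left out, and 5 under the study's call rule (unadjusted p under 0.05 with a fold limit of 0.5 in log2), where *ME2* (0.40) lay under the fold limit. The 2 members called lower became 1 under that rule, because *ME1* (-0.26) lay under the limit, and 1 to 2 with a library left out. *ME1* ranged from -0.29 to -0.20 when each library was left out. In the FPKM test the number of lower members was also 1 to 2 with a library left out. No member's direction changed in these alternatives, and *GLUD1* did not pass in any of its 13, with edgeR or DESeq2 adjusted p-values from 0.08 to 0.69. In the pathway lists, 2 genes rose and 6 fell under the study's call rule, against 10 and 9 in the main fit. Of all tested genes, 9.22% were higher and 10.8% lower under that rule, against 17.7% and 16.6% in the main fit. Leaving out a library gave 6 to 12 higher and 4 to 8 lower in the lists, and fewer samples enter those fits. The *GOT2* to *GOT1* difference changed sign when sgCtrl replicate 2 or sg*NF2*-1 replicate 3 was left out (range -0.0794 to 0.0556 over the libraries left out).

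The deviations of same-numbered libraries correlated at -0.03, 0.06 and 0.05, and not every library correlated best with its own number. These values gave no clear sign of pairing by replicate number, but they cannot show that the libraries were unpaired. With the replicate block the members called were 6 higher and 2 lower, and the ratios kept their differences. With 3 libraries a group, a change of the size of *GLUD1*'s was not resolved.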
